A study of Mus musculus with 60 samples.

Results

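The genes described here are the receptors and ligands of the epidermal growth factor (EGF) family and of hepatocyte growth factor, or HGF, in mouse liver cells. The 10 genes were taken by name, and no measured value enters the rule that lists them: the receptors Egfr, Erbb2, Erbb3 and Met, the EGF family ligands Tgfa, Areg, Ereg, Hbegf and Egf, and the MET ligand Hgf. They are 10 of the 19456 genes listed in the cell and liver RNA-seq tables together, and each of the 10 is in both. Their levels were compared across 33 libraries of cultured liver cells in 11 groups and 18 libraries of whole liver in 6 groups, with 3 libraries in each group.

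Every sample is labelled as wild type and of strain C57BL/6. The study's methods describe its single-hepatocyte lines as grown from offspring of Albumin-Cre and R26RtdTomato mice, alleles that the clone-1 labels do not name. Hepatocytes were primary cells freshly isolated from adult liver. IL6-iHPCs are proliferating cells obtained by culturing such hepatocytes in an expansion medium that contains EGF, HGF and interleukin 6 (IL6) with dexamethasone. They were taken before any passage on day 3 (IL6-iHPCs-D3) and day 14 (IL6-iHPCs-D14), and after passage as the lines mouse-1 at passage 10, mouse-2 at passage 10, clone-1 at passage 20 and mouse-1 at passage 35. The first and the last of these are the same mouse line at different passages, and clone-1 is a line grown from a single hepatocyte, hence 1 clone. IL6-iMHs are labelled as cells of the same 4 lines, moved to a maturation medium with more dexamethasone and with oncostatin M, which contains neither EGF, HGF nor IL6. The livers were normal liver and liver after 2/3 partial hepatectomy (PHX) taken 6 h or 24 h later, or on day 3, on day 7 or on day 14.

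EGFR and MET are receptor tyrosine kinases that signal mainly through the RAS-ERK and PI3K-AKT pathways, and both drive hepatocyte proliferation in culture and in the regenerating liver. EGFR binds EGF, TGF-alpha, amphiregulin, epiregulin and HB-EGF, which are made as membrane-anchored precursors and released by metalloproteases of the ADAM family. ERBB2 has no ligand of its own and ERBB3 has little kinase activity, so that each acts in a dimer with another receptor of the family. HGF is secreted mainly by stellate and endothelial cells of the liver as an inactive single chain, and is cleaved by serine proteases before it activates MET on hepatocytes.

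Values are FPKM (fragments scaled to transcript length and to library size), which can be set side by side between genes because they are per length. Differences are given on the log2(FPKM + 1) scale with the standard error (SE) of a limma fit across all genes. A gene was called higher or lower when the Benjamini-Hochberg adjusted p was below 0.05 and the difference was at least 2-fold, that is 1 on this log2 scale, and "rose" and "fell" are used only for called differences. Recovered depth was 49.3 to 88.8 M (mega) reads per cell library and 52.0 to 79.2 M per liver library. The 3 cell libraries of a group are technical repeats, so that p-values for cells cover technical spread only, and nothing states whether the 3 livers of a group were 3 animals.

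Some features of the libraries bear on every comparison below. Relative to hepatocytes the median of all genes was higher by 1.14 in IL6-iHPCs-D3, by 1.00 in IL6-iHPCs-D14, by 0.93 in the passaged lines of IL6-iHPCs and by 0.46 after maturation to IL6-iMHs on the log2 scale, so a modest increase against hepatocytes is no more than the typical gene showed. The number of reads on 4 Y-linked genes (Ddx3y, Eif2s3y, Kdm5d and Uty) was 994 to 1550 in hepatocytes, 9185 to 18444 in both unpassaged cultures and 6575 to 9095 in IL6-iHPCs of clone-1. It was at most 2 in the mouse-1 and mouse-2 lines and 0 in every IL6-iMH library, including the libraries labelled IL6-iMHs-clone-1, which therefore differ from IL6-iHPCs-clone-1 in more than the medium. In summed FPKM the 4 Y-linked genes were at 5.46 to 7.21 in hepatocytes and 53.4 to 81.4 in the unpassaged cultures. Source animal and culture cannot be told apart in comparisons of hepatocytes with any cultured group, unpassaged, passaged or matured. Maturation is given with and without clone-1 for the members, and over all 4 lines for the marker and pathway lists. In liver the reads on these 4 genes were 7484 to 10652 in normal liver and 7686 to 16272 from 6 h to day 3. They were 4663 to 7771 on day 7 and 2673 to 3690 on day 14, and their part in the PHX differences was not tested. The summed FPKM of the hepatocyte marker list was 74916 to 80837 in hepatocytes, 646 to 759 on day 3 and 60947 or more in each IL6-iMH library. A lower level in bulk RNA can be fewer cells of a type or less RNA per cell, which cannot be told apart.

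Egfr, the receptor for EGF and the 4 other EGF family ligands measured here, was at a high level in hepatocytes, was higher still on day 14 of culture, though by less than 2-fold, and ranged from 13.6 to 150 FPKM between the passaged lines. Its FPKM was 109, 123 and 108 in hepatocytes, 139, 130 and 151 in IL6-iHPCs-D3 and 199, 208 and 203 in IL6-iHPCs-D14. It was 129, 132 and 141 in IL6-iHPCs of mouse-1 at passage 10, 147, 150 and 150 in mouse-2, 16.2, 16.1 and 13.6 in clone-1, and 22.7, 23.9 and 24.6 in mouse-1 at passage 35. The 2 lines at passage 10 thus stood above hepatocytes in each library, and both late-passage lines stood far below, without overlap. All 12 IL6-iMH libraries lay between 29.8 and 51.0, above both late-passage IL6-iHPC lines and below every other IL6-iHPC library and every hepatocyte library. Ordered by mean, day 14 came first (203), followed by mouse-2, day 3 and mouse-1 at passage 10 (149, 140 and 134), whose libraries overlapped from neighbour to neighbour, then hepatocytes (114), IL6-iMHs (45.1, 40.5, 40.3 and 30.9, the first 3 overlapping), mouse-1 at passage 35 (23.7) and clone-1 (15.3).

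Against hepatocytes Egfr differed by 0.30 ± 0.09 on day 3 and by 0.83 ± 0.09 on day 14 on the log2 scale, short of the 2-fold limit. The direction on day 3 depends on the scaling: after median-of-ratios scaling, which moves the typical gene to no change, Egfr was called lower by a log2 difference of -1.31. On day 14 it was then at -0.59, not called. Line by line the differences from hepatocytes were 0.23 for mouse-1 and 0.39 for mouse-2 at passage 10, and Egfr fell by 2.81 in clone-1 and by 2.21 in mouse-1 at passage 35 (SE 0.09 each). The mean over the 4 passaged lines was lower than in hepatocytes by -1.10 ± 0.07, a call that rests on the 2 late-passage lines: it was -0.53 without clone-1 and -0.73 without mouse-1 at passage 35, neither of them called. In IL6-iMHs Egfr fell in each line against hepatocytes, by 1.31 to 1.84.

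**Figure D1:**
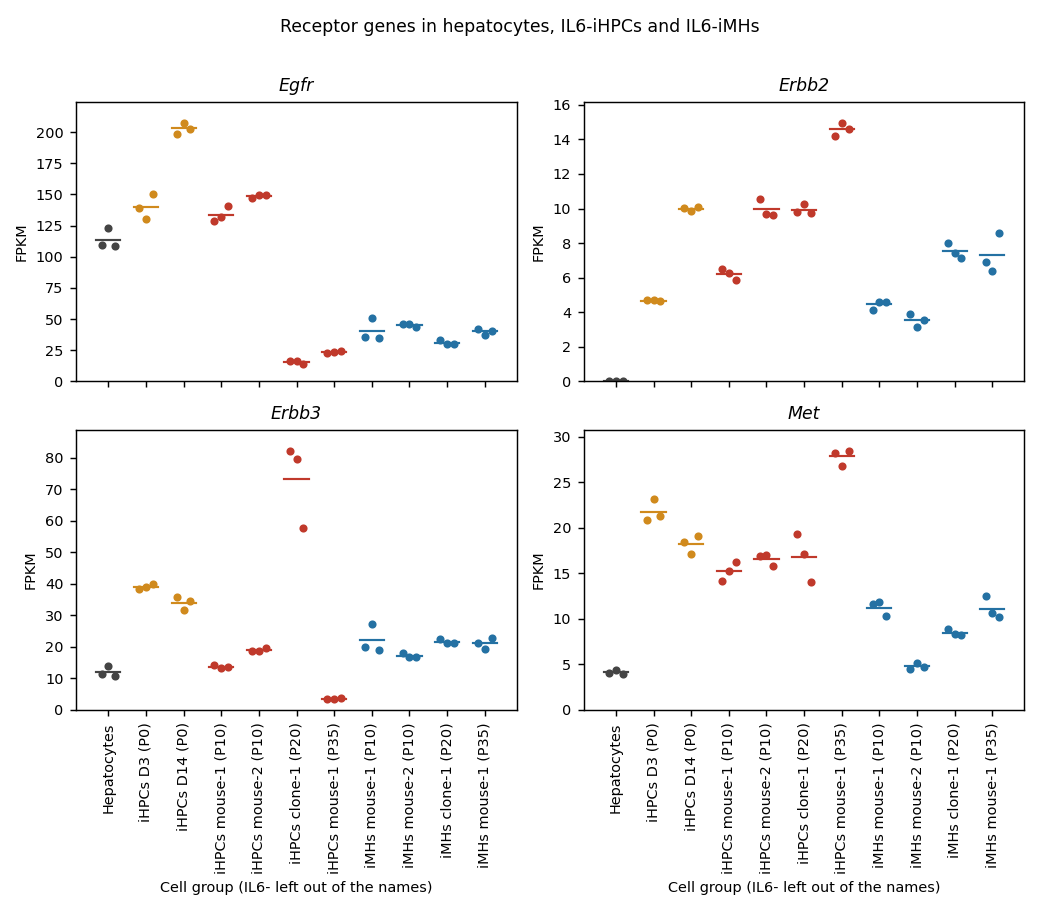
FPKM of the receptors Egfr, Erbb2, Erbb3 and Met in each of the 33 cell libraries on linear axes, by group, with points for libraries and a bar for the group mean. Egfr is lowest in IL6-iHPCs of clone-1 (mean 15.3) and mouse-1 at passage 35 (23.7), whereas Erbb2 and Met are lowest in hepatocytes and Erbb3 spans from 3.28 at passage 35 to 82.2 in clone-1.

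Erbb2, the ligandless partner receptor, was close to undetected in hepatocytes and was present in every cultured group. It was at 0.041, 0.026 and 0.021 FPKM in hepatocytes, 4.68, 4.69 and 4.65 on day 3 and 10.03, 9.84 and 10.09 on day 14. In passaged IL6-iHPCs it ranged from 5.85 to 15.0, with the highest values (14.2, 15.0 and 14.6) in mouse-1 at passage 35. IL6-iMHs held 3.17 to 8.56, and no cultured library overlapped the hepatocytes. Erbb2 rose against hepatocytes by 2.46 ± 0.07 on day 3, 3.42 ± 0.07 on day 14, 3.39 ± 0.06 as the mean over passaged lines and 2.65 in IL6-iMHs.

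The 250 bases before the annotated starts of Egfr and Erbb2 are shown because these 2 receptors, on the same chromosome, differed in pattern: Egfr was high in hepatocytes and lowest in clone-1 and at passage 35, and Erbb2 was lowest in hepatocytes and highest at passage 35. Sequences are from RefSeq on GRCm38.p6, the plus strand being the strand of both genes, and 7 of the 10 genes had such an entry. Capitals mark matches, on either strand, to 5 motifs searched by letters: the cyclic AMP response element TGACGTCA, the AP-1 motif TGANTCA, the STAT motif TTCNNNGAA, the GC box GGGCGG and the TATA motif TATAAA. Over 32851 windows of the same length these were found in 1.55%, 6.75%, 7.02%, 32.7% and 12.4%.
Egfr, chr11:16751953-16752202: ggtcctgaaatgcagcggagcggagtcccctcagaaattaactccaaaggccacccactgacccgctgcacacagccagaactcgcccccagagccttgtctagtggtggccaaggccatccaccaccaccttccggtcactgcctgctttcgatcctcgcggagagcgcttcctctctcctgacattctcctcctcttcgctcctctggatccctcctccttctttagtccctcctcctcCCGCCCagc
Erbb2, chr11:98412234-98412483: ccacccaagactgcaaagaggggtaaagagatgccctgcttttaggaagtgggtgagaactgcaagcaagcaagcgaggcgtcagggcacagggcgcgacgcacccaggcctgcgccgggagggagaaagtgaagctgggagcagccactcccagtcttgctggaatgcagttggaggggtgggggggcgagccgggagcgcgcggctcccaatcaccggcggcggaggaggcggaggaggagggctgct
The Egfr window holds a GC box on the minus strand, 9 to 4 bases before the start, and no other of these motifs. The Erbb2 window holds none of the 5, which says only that these letters are absent from these bases. Both windows are rich in G and C, at 60.8% for Egfr and 66.0% for Erbb2.

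Erbb3, the neuregulin receptor with little kinase activity, rose on first culture and then went in opposite directions in the late-passage lines. It was at 11.2, 13.9 and 10.6 FPKM in hepatocytes, 38.4, 38.9 and 39.7 on day 3 and 35.8, 31.6 and 34.6 on day 14. In the 2 lines at passage 10 it was 13.3 to 19.5, in clone-1 it was 82.2, 79.5 and 57.7, and in mouse-1 at passage 35 it was 3.48, 3.28 and 3.62. Clone-1 was therefore above and passage 35 below every hepatocyte library. The IL6-iMHs lay close together, between 16.6 and 27.1 in all 12 libraries.

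On the log2 scale Erbb3 rose against hepatocytes by 1.64 ± 0.11 on day 3 and 1.45 ± 0.11 on day 14, values not far above the median gene. Against hepatocytes it rose by 2.51 in clone-1, fell by 1.52 at passage 35 and differed by 0.19 and 0.64 in the lines at passage 10 (SE 0.11 each). The mean over the 4 lines, 0.46 and -0.34 after quantile normalisation, lies among the lines at passage 10 and describes neither clone-1 nor passage 35, and without passage 35 it was 1.11 and called higher.

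Met, the HGF receptor, was lowest in hepatocytes, at 3.998, 4.39 and 3.88 FPKM. It was 20.9, 23.1 and 21.2 on day 3 and 18.4, 17.1 and 19.1 on day 14. Passaged IL6-iHPCs had 14.0 to 19.3 at passage 10 and in clone-1, and 28.2, 26.8 and 28.5 at passage 35. Every IL6-iHPC library was above all hepatocyte libraries. Met rose by 2.16 ± 0.08 on day 3, 1.91 on day 14 and 1.94 ± 0.07 in passaged IL6-iHPCs, with 1.67 to 2.503 in the single lines. In IL6-iMHs of mouse-2 it was 4.46, 5.13 and 4.64, with a difference from hepatocytes of 0.17, and in the other 3 lines it was 8.17 to 12.5.

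Among the ligands, Tgfa, which encodes TGF-alpha, was the only member ligand above 1 FPKM in hepatocytes. It was at 3.29, 3.75 and 2.54 FPKM there, 40.6, 36.8 and 40.1 on day 3 and 148, 157 and 140 on day 14. Passaged IL6-iHPCs ranged from 33.3 to 64.7 and IL6-iMHs from 29.9 to 56.6, so that all cultured libraries were above hepatocytes and day 14 was above all others. Tgfa rose against hepatocytes by 3.27 ± 0.09 on day 3, 5.16 on day 14, 3.52 ± 0.07 as the mean over passaged lines and 3.33 in IL6-iMHs. It was the steadiest of the ligands between lines, with line differences from hepatocytes of 3.08 to 3.86 in IL6-iHPCs and 2.94 to 3.70 in IL6-iMHs.

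**Figure D2:**
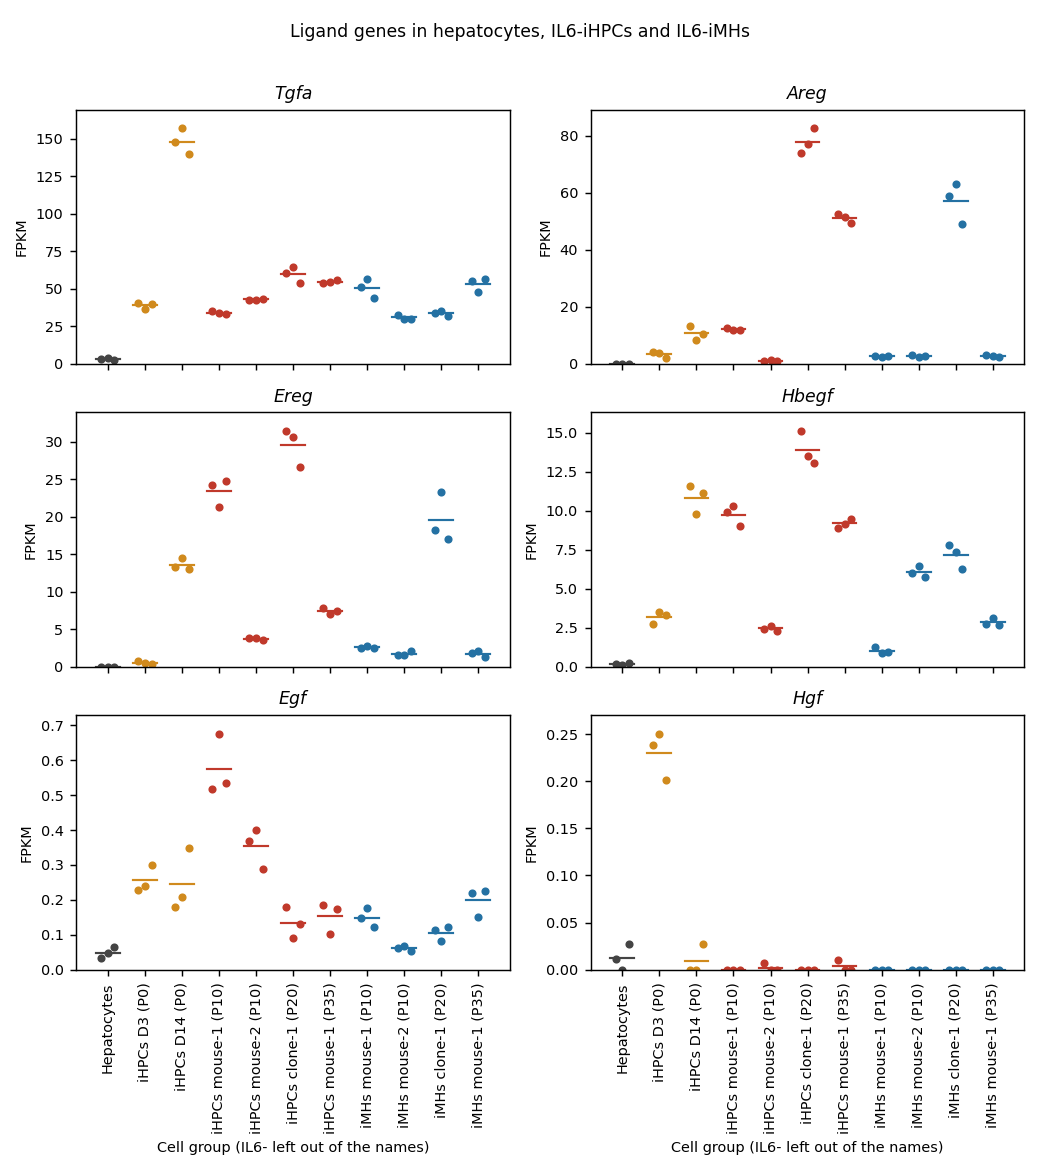
FPKM of the ligands Tgfa, Areg, Ereg, Hbegf, Egf and Hgf in each of the 33 cell libraries on linear axes, by group, with points for libraries and a bar for the group mean. Tgfa peaks on day 14 (140 to 157), the group means of Areg, Ereg and Hbegf are highest in IL6-iHPCs of clone-1, and Egf and Hgf stay below 1 FPKM in every library.

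Areg, which encodes amphiregulin, and Ereg, which encodes epiregulin, were practically absent from hepatocytes and reached 82.6 and 31.4 FPKM, respectively, in clone-1. Areg had 0, 0 and 3 reads in the hepatocyte libraries. It was at 4.32, 3.87 and 1.99 FPKM on day 3 and 13.3, 8.37 and 10.5 on day 14. In passaged IL6-iHPCs it was 12.7, 12.04 and 11.9 in mouse-1 at passage 10, 1.02, 1.39 and 1.11 in mouse-2, 74.1, 77.2 and 82.6 in clone-1, and 52.7, 51.4 and 49.3 at passage 35. The 4 lines did not overlap, and the mouse-2 libraries lay below those of day 3. From 3 hepatocyte reads in all, the ratio of reads was 278 on day 3 (95% exact interval 94.8 to 1351), 97.1 in mouse-2 (32.9 to 474) and 6347 in clone-1 (2171 to 30779), intervals that cover counting error only.

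Ereg had 0 reads in each hepatocyte library. It was at 0.743, 0.496 and 0.347 FPKM on day 3 and 13.4, 14.4 and 13.1 on day 14, and with hepatocytes set to a floor of 3 reads per library it was at least 48.2-fold higher on day 3 and at least 1242-fold higher on day 14. In the passaged lines it was 24.2, 21.2 and 24.7 in mouse-1 at passage 10, 3.88, 3.86 and 3.56 in mouse-2, 31.4, 30.6 and 26.6 in clone-1 and 7.89, 7.02 and 7.48 at passage 35. As for Areg, clone-1 was highest and mouse-2 lowest among the passaged lines. A noncoding gene, Gm19610, overlaps the start of Ereg, and since the counting is not stated to use strand, reads from it cannot be told apart from those of Ereg there.

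Areg and Ereg are neighbours on mouse chromosome 5. In GRCm38.p6 Ereg spans chr5:91074617-91093649 and Areg chr5:91139599-91148432, with 45949 bases and 0 other RefSeq genes between them. Over the means of the 11 cell groups, several of which are labelled as the same line, Pearson's r was 0.840 between Areg and Ereg, 0.828 between Areg and Hbegf and 0.830 between Ereg and Hbegf. The 250 bases before Areg are shown because the difference from hepatocytes varied more between passaged lines for Areg than for the other genes tested. They hold a cyclic AMP response element 61 to 54 bases, a GC box 52 to 47 bases and a TATA motif 31 to 26 bases before the start, in capitals, and 57.2% of the bases are G or C.
Areg, chr5:91139349-91139598: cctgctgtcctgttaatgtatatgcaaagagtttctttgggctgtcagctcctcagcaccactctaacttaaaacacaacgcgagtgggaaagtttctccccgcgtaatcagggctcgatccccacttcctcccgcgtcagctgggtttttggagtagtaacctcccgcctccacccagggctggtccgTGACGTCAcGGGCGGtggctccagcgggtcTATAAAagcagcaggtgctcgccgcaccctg

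Hbegf, which encodes HB-EGF, was at 0.149, 0.087 and 0.246 FPKM in hepatocytes, 2.76, 3.51 and 3.31 on day 3 and 11.6, 9.77 and 11.1 on day 14. It was 9.90, 10.3 and 9.03 in mouse-1 at passage 10, 2.45, 2.61 and 2.30 in mouse-2, 15.1, 13.5 and 13.025 in clone-1, and 8.91, 9.16 and 9.49 at passage 35. Mouse-2 was again the lowest and clone-1 the highest of the passaged lines, and mouse-1 differed little between passages. Hbegf rose against hepatocytes by 1.85 ± 0.09 on day 3, by 3.35 on day 14 and by 2.90 ± 0.07 in passaged IL6-iHPCs.

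The 2 growth factors supplied in the expansion medium were hardly transcribed by the cells. Egf reached at most 0.675 FPKM, in mouse-1 at passage 10 (0.517, 0.675 and 0.535), against 0.034, 0.047 and 0.065 in hepatocytes. Hgf had 2, 0 and 4 reads in hepatocytes, 36, 45 and 32 on day 3 (0.238, 0.250 and 0.202 FPKM), 0, 0 and 4 on day 14 and 0 to 2 in every other library, with 0 in all 12 IL6-iMH libraries. Neither gene passed the filter of 1 FPKM in at least 3 libraries, and neither was tested. The other 8 genes passed it.

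Relative to hepatocytes, the sum of the 3 ErbB receptors was higher on day 14 but lower in clone-1, at passage 35 and in IL6-iMHs. The sum of the 5 member EGF family ligands was higher than in hepatocytes in every cultured group, and its composition differed between lines. Nrg4 and Btc, further ligands of the family that are described below, are not in this sum. On day 14 Nrg4 (235 FPKM) was above Tgfa (148). The ligand sum averaged 3.42 FPKM in hepatocytes, 46.6 on day 3 and 184 on day 14. In IL6-iHPCs it was 80.1 in mouse-1 at passage 10, 50.7 in mouse-2, 181 in clone-1 and 123 at passage 35. Tgfa made up 93.0% of it in hepatocytes, 84.2% on day 3, 80.7% on day 14 and 84.7% in mouse-2, but 42.7% in mouse-1 at passage 10, where Ereg gave 29.2%, and 32.9% in clone-1, where Areg led with 43.1%. At passage 35 Tgfa gave 44.7% and Areg 41.6%. The ErbB receptor sum averaged 126 FPKM in hepatocytes and 247 on day 14, and Egfr was 76.2% or more of it in hepatocytes, both unpassaged cultures and both lines at passage 10. In clone-1 the sum was 98.4 with Erbb3 at 74.1% and Egfr at 15.7%, and at passage 35 it was 41.8 with Egfr at 56.8% and Erbb2 at 34.9%. The receptor sum of IL6-iMHs was 60.0 to 68.6 in the 4 lines, with Egfr at 51.5% to 68.7%.

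**Figure D3:**
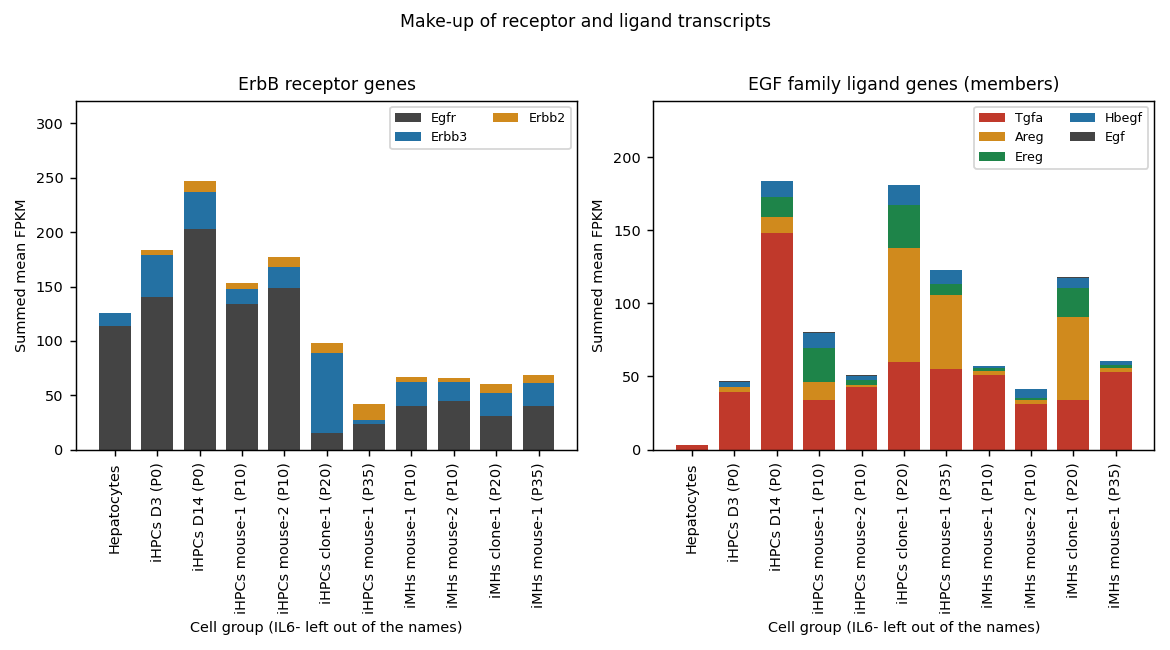
Stacked bars of mean FPKM by cell group, for the summed ErbB receptors (Egfr, Erbb2, Erbb3) and the summed EGF family ligands (Tgfa, Areg, Ereg, Hbegf, Egf). Egfr is the larger part of the receptor sum in every group except IL6-iHPCs of clone-1, where Erbb3 gives 74.1%, and Tgfa leads the ligand sum except in IL6-iHPCs and IL6-iMHs of clone-1, where Areg gives 43.1% and 48.4%.

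The first comparison sets hepatocytes against expansion culture on day 3 and day 14, which also differ from them in Y-linked reads. Of the 8 genes tested, 6 were called higher and 0 lower on day 3 (Areg, Met, Erbb2, Hbegf, Tgfa and Erbb3). This was against 53.9% higher and 12.1% lower of the 12328 genes tested in all. Areg, Ereg, Erbb2 and Hbegf were below 1 FPKM in every hepatocyte library and passed the filter through cultured groups. On the log2(FPKM + 1) scale they could be called higher than hepatocytes but not lower. This holds for every count against hepatocytes given here, so 0 lower says nothing about these genes. Ereg differed by 0.60 ± 0.11 (limma adjusted p = 7.35e-06) and Egfr by 0.30 ± 0.09 (limma adjusted p = 0.00386), both under 2-fold. On day 14, 7 were higher and 0 lower, against 50.0% and 12.9%, with Egfr as the exception. Between day 3 and day 14 the ligands went on rising: Areg by 1.44, Ereg by 3.26, Hbegf by 1.497 and Tgfa by 1.89 were called, 4 higher and 0 lower, against 5.12% and 5.05% of all genes. The cholangiocyte list, with 4 of 6 genes tested, also went up in culture: its sum was 3.84 to 3.94 FPKM in hepatocytes, with Krt7 and Cftr at 0, 355 to 529 on day 3 (3 of 4 called higher) and 4060 to 4483 on day 14 (4 of 4). The stellate list, with 2 of 8 genes tested, summed to 1.29 to 1.53 FPKM in hepatocytes, 6.11 to 8.53 on day 3 (Ecm1 higher, by 2.26) and 53.5 to 57.1 on day 14 (Ecm1 higher by 4.24 and Dcn by 4.06), and both genes also rose from day 3 to day 14. The part of these lists in the ligand and receptor values was not tested. Of the Kupffer cell list 1 of 6 tested was higher and 4 lower on both days. From day 3 to day 14 the receptors differed by 0.95 (Erbb2), 0.54 (Egfr), -0.20 (Erbb3, limma adjusted p = 0.110) and -0.25 (Met), and none was called.

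The direction of calls against hepatocytes depended on scaling for all genes. On day 3, 6641 genes were higher and 1494 lower, but 3179 and 2749 after quantile normalisation and 3207 and 3493 after median-of-ratios scaling. On day 14 the split was 6163 to 1595, then 3117 to 2785 and 3182 to 3465. For the passaged lines it was 5931 to 1392, then 2797 to 2335 and 2878 to 3154, and for IL6-iMHs it was 3060 to 960, then 1576 to 1340 and 1670 to 2074. After quantile normalisation Met, Erbb3 and Hbegf were under 2-fold on day 3 (0.88, 0.89 and 0.66), and Met and Erbb3 on day 14 (0.76 and 0.78), whereas Egfr on day 14 was called higher (1.51). After median-of-ratios scaling Met was at 0.73 and 0.66 and Erbb3 at 0.10 and 0.09 on the 2 days.

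In passaged IL6-iHPCs 6 of the 8 genes were higher than in hepatocytes and 1, Egfr, was lower, against 48.1% and 11.3% of all genes. Areg was higher by 4.19 ± 0.11, Ereg by 3.72 ± 0.09 and Hbegf by 2.90 ± 0.07 as the mean over lines, with line values of 1.10 to 6.28, 2.25 to 4.93 and 1.57 to 3.68. Line by line, 6 were higher and 0 lower in mouse-1 at passage 10 (40.0% and 12.6% of all genes), 6 and 0 in mouse-2 (42.8% and 13.1%), 7 and 1 in clone-1 (51.5% and 10.4%) and 6 and 2 at passage 35 (54.3% and 11.7%). After quantile normalisation Met (0.82) and Egfr (-0.88) were under 2-fold as means over lines. So were Met (0.86), Areg (0.82) and Hbegf (0.72) in mouse-2, and Met in mouse-1 at passage 10 (0.77) and in clone-1 (0.47). After median-of-ratios scaling Met (0.76) and Areg (0.996) were under 2-fold in mouse-2. Against day 14, Egfr was lower by -1.93 and Tgfa by -1.64, so 0 were higher and 2 lower, against 4.89% and 6.57%. Areg (0.68), Hbegf (-0.45), Ereg (-0.15), Met (0.03) and Erbb2 (-0.03) were not called as means over lines. For Areg this rests on mouse-2, without which it was called higher by 1.71. Erbb3, at -0.99, was called lower without mouse-2 (-1.05) or without clone-1 (-1.68), and at -1.01 to -1.04 without day 14 replicate 2 or clone-1 replicate 1 or 2.

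The same line at 2 passages differed in most of these genes. Between passage 10 and passage 35 of mouse-1, Egfr fell by 2.45, Erbb3 by 1.72 and Ereg by 1.53, while Areg rose by 1.98 and Erbb2 by 1.11. That is 2 higher and 3 lower, against 24.8% and 8.94% of all genes. In FPKM, passage 35 had 0.177 of the passage 10 level of Egfr, 0.253 of that of Erbb3 and 0.319 of that of Ereg, and 4.19 times that of Areg. Met (0.83), Tgfa (0.67) and Hbegf (-0.08) were not called. The Erbb2 call was lost under quantile normalisation (0.72) and median-of-ratios scaling (0.63). Markers moved too: the hepatocyte sum was 7377 to 8410 FPKM at passage 10 and 1919 to 1943 at passage 35, with 4 of 7 genes tested lower. The cholangiocyte sum was 7409 to 8438 and 2699 to 2794, with Krt19 (5.91) and Krt7 (1.504) higher and Sox9 (-2.70) and Spp1 (-1.86) lower of 4 tested. The neutrophil and monocyte sum was 0.103 to 0.186 and 86.7 to 92.9, with S100a8 (6.27) and S100a9 (2.75) higher of 3 tested and Retnlg, Csf3r and Ccr2 at 0. The stellate sum was 12.3 to 21.0 and 27.3 to 29.8, with Ecm1 higher (3.16) and Dcn lower (-1.45) of 2 tested. Their part in these differences was not tested. With 1 line and technical repeats, the passage number and the culture's own history cannot be told apart.

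Maturation compares the lines in expansion medium and in maturation medium. These media differ in EGF, HGF, IL6, oncostatin M and dexamethasone, whose parts cannot be told apart. As the mean over 4 lines, IL6-iMHs against IL6-iHPCs had Areg lower by -1.32 ± 0.07, Ereg by -1.44 ± 0.05 and Met by -1.04 ± 0.04. These are 0 higher and 3 lower of 8, against 6.68% and 21.4% of all genes. Hbegf (-0.91), Erbb2 (-0.74), Egfr (-0.43), Erbb3 (0.27) and Tgfa (-0.19) were not called. The median gene was lower by -0.40, and after quantile normalisation all 3 calls were lost (Areg -0.86, Ereg -0.91, Met -0.60), as the all-gene split went from 823 higher and 2636 lower to 1185 and 1096. Without clone-1 the same 3 genes were called, at -1.61, -1.73 and -1.09. Without mouse-1 at passage 35 Areg was at -0.48 and Met at -0.97, and without mouse-2 Met was at -0.86, none of them called.

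The means hide lines that went in opposite directions. Egfr fell by 1.72 in mouse-1 at passage 10 and by 1.70 in mouse-2, but was higher by 0.97 in clone-1 and 0.74 at passage 35, which started low. The last 2 were called after quantile normalisation (1.43 and 1.18), and clone-1 also when IL6-iHPC replicate 1 or 2 was left out (1.01). All lines ended at 29.8 to 51.0 FPKM. Erbb3 rose by 2.30 at passage 35, fell by 1.70 in clone-1 and differed by 0.63 and -0.15 in the lines at passage 10. The clone-1 groups also differ in Y-linked reads, and without clone-1 Erbb3 was higher in 1 line and lower in 0. Hbegf went from 9.90, 10.3 and 9.03 to 1.26, 0.892 and 0.927 FPKM in mouse-1 at passage 10, a fall of 2.41 on the log2 scale. In mouse-2 it went from 2.45, 2.61 and 2.30 to 6.03, 6.46 and 5.77, a rise of 1.04 that fell just below 2-fold (0.999) when IL6-iMH replicate 2 was left out.

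Areg fell by 1.82 in mouse-1 at passage 10 and by 3.83 at passage 35, where it went from 52.7, 51.4 and 49.3 to 3.09, 2.63 and 2.32 FPKM. It differed by 0.83 in mouse-2, called higher after quantile normalisation (1.55), and by -0.45 in clone-1, where the libraries labelled IL6-iMHs-clone-1 still held 59.0, 63.1 and 48.9 FPKM. These were above all other IL6-iMH libraries, which held 2.32 to 3.17. Ereg fell by 2.77 in mouse-1 at passage 10 and by 1.63 at passage 35, with -0.80 in mouse-2 and -0.58 in clone-1. Met fell by 1.61 in mouse-2 and 1.26 at passage 35, with -0.41 and -0.90 in the other 2. Tgfa was called in no line (0.55, -0.46, -0.80 and -0.05).

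Line by line, maturation gave 0 higher and 4 lower in mouse-1 at passage 10 (9.59% and 15.4% of all genes), 1 and 3 in mouse-2 (11.2% and 28.6%), 0 and 1 in clone-1 (5.86% and 17.7%) and 1 and 4 at passage 35 (10.2% and 35.1%). Over the 4 lines the hepatocyte list had 6 of 7 genes higher with maturation, the cholangiocyte list 2 of 4 lower and the stellate list 2 of 2 lower, and their part in these changes was not tested. Tested as an interaction, the change differed between the 4 lines for all 8 genes, but 96.3% of all genes also did, so with technical repeats this test separates few genes. The spread between the highest and lowest line change was 4.66 for Areg, 4.002 for Erbb3, 3.45 for Hbegf and 2.69 for Egfr, against a median of 1.26 over all genes.

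**Figure D4:**
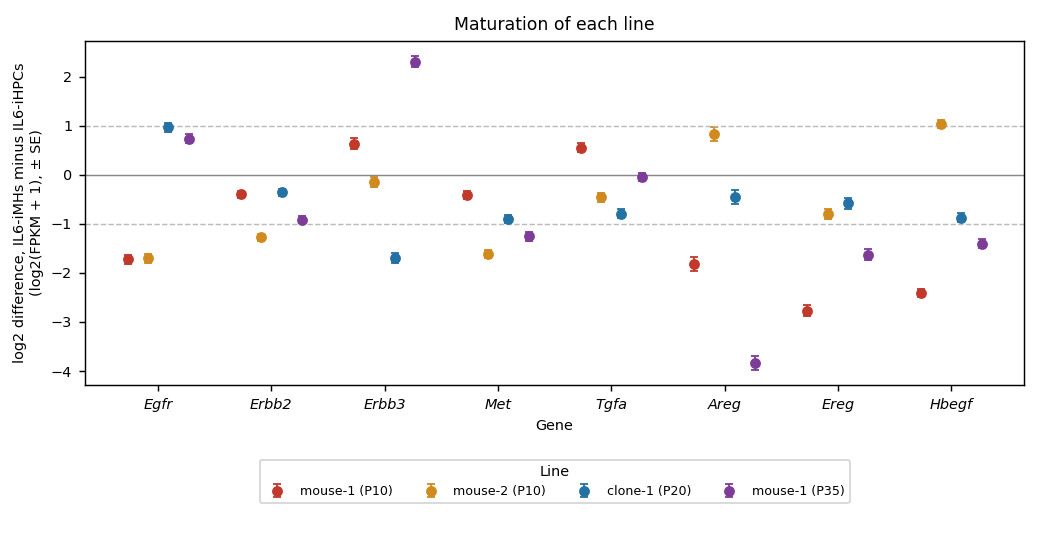
Log2 difference of log2(FPKM + 1) between IL6-iMHs and IL6-iHPCs labelled as the same line, with SE bars, for the 8 tested genes in the 4 lines, with the 2-fold limit drawn. The clone-1 groups also differ in Y-linked reads. Erbb3 is above it at passage 35 (2.30) and below it in clone-1 (-1.70), Hbegf is above it in mouse-2 (1.04) and below it in mouse-1 at passage 10 (-2.41), and Tgfa stays within it in all lines.

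IL6-iMHs did not return to the hepatocyte level for most of these genes. Of 8, 5 were higher than in hepatocytes (Areg 2.87, Ereg 2.27, Erbb2 2.65, Hbegf 1.99 and Tgfa 3.33) and 1 was lower (Egfr, -1.53), against 24.8% and 7.79% of all genes. Met (0.89) and Erbb3 (0.73) were not called. Without clone-1 the 6 calls were the same, with Areg at 1.89 and Ereg at 1.58. Met was called higher without mouse-2 (1.13). Areg, Ereg, Erbb2 and Tgfa were higher in each line, and Hbegf in all but mouse-1 at passage 10 (0.80). This gave 5 higher and 1 lower in mouse-1 at passage 10 (25.4% and 7.25% of all genes), in mouse-2 (17.6% and 7.63%) and in clone-1 (35% and 10.4%), and 6 and 1 at passage 35 (27.1% and 8.02%).

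Genes of the surrounding pathway were followed in 6 lists: EGF family ligands, ErbB and MET receptors, the HGF activation system, sheddases, adaptors and kinases, and feedback regulators. On day 3, 6 of 7 ligands tested were higher and 0 lower, and 4 of 5 receptors. Beside the members these included Nrg4, an ERBB4 ligand (2.501 to 69.9 FPKM, 4.33 on the log2 scale), Nrg1, a neuregulin that binds ERBB3 (0.00596 to 3.57, 2.18), Btc, which encodes betacellulin (0.468 to 4.23, 1.83), and Mst1r, which encodes the MET-related receptor RON (0.0352 to 1.65, 1.36). Nrg1, Btc and Mst1r, and Hgfac on day 3, were chosen after their values were seen. Erbb4 itself was at most 0.18 FPKM in any library.

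All 8 sheddase genes tested were higher on day 3, led by Adam10 (1.26 to 59.9 FPKM, 4.75) and Adam15 (0.125 to 19.1, 4.15). The HGF activation system moved both ways, with 3 higher and 5 lower of 11, against 53.9% and 12.1% of all genes. The plasminogen activator Plat (0.00463 to 20.01, 4.38) and the urokinase receptor Plaur (0.310 to 27.4, 4.44) rose. The hepatocyte-secreted proteases F12 (436 to 15.2, -4.75), Klkb1 (32.95 to 1.61, -3.70) and Hgfac, the HGF activator (144 to 11.9, -3.49), fell. Of 26 adaptors and kinases 20 were higher and 0 lower, such as Gab2 (3.73) and Irs2 (3.29), and of 17 feedback regulators 13 and 0, such as the ERK phosphatase Dusp4 (4.72) and the ubiquitin ligase Cblb (4.27). The background for these lists is again 53.9% of all genes higher and 12.1% lower.

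By day 14 Nrg4 had reached 235 FPKM and Btc 22.2. Plat was at 84.3, and 6 of 7 ligands and 6 of 11 genes of the HGF system were higher than on day 3 and 0 lower, against 5.12% and 5.05% of all genes. Passaged lines then had less Nrg4 (77.5 FPKM, -2.16 against day 14) and Btc (4.75, -2.08), with 0 ligands higher and 3 of 7 lower, against 4.89% and 6.57%. With maturation Nrg4 rose to 152 (1.35), F12 from 20.6 to 161 (4.17) and the HGF-activating protease Hpn from 40.8 to 144 (2.00), while Plat fell from 88.5 to 32.7 (-2.07) and Adam10 from 52.7 to 12.7 (-2.07). Of the other lists, 4 of 8 sheddases, 9 of 26 adaptors and 9 of 17 feedback regulators were lower with maturation and 0 higher, against 21.4% and 6.68% of all genes, among them Nras (-1.47), Braf (-1.36), Cblb (-1.86) and Spred1 (-1.63). These maturation values are over all 4 lines, with clone-1 included. Of all genes, 823 were higher and 2636 lower with maturation, but 1185 and 1096 after quantile normalisation. Between passage 10 and 35 of mouse-1, Dusp6 (11.7 to 55.3, 2.15) and Hras (12.035 to 66.3, 2.38) rose and Errfi1, an EGFR inhibitor (260 to 71.3, -1.85), fell.

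The PHX series asks how these genes move in the liver as it regrows. Of the 10 genes, 6 passed the filter: Egfr, Erbb3, Met, Hgf, Tgfa and Hbegf. Egfr was at 106, 92.7 and 141 FPKM in normal liver and between 60.0 and 193 in all 15 PHX livers. The widest spread was on day 3 (193, 60.0 and 136), each group overlapped its neighbour in the order of means, and Egfr was called at no time. Its largest difference from normal was -0.32 ± 0.31 (limma adjusted p = 0.474) on day 7. Erbb2 stayed between 0.161 and 0.629 FPKM in all 18 livers.

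Hgf, the MET ligand, rose at 6 h, at 24 h and on day 3. It was at 1.19, 1.64 and 0.820 FPKM in normal liver, 3.86, 4.23 and 7.10 at 6 h, 6.10, 8.56 and 10.7 at 24 h and 2.73, 13.04 and 4.01 on day 3. All 9 of these livers were above all normal livers. On day 7 it was 2.14, 1.61 and 1.11, with 1 liver above all normal livers and 2 within their range, and on day 14 it was 0.335, 0.276 and 0.301, below all normal livers. Hgf rose by 1.43 ± 0.36 at 6 h (limma adjusted p = 0.00411), 2.08 ± 0.36 at 24 h (0.00073) and 1.55 ± 0.36 on day 3 (0.00636). Without PHX-D3 replicate 2, whose Hgf of 13.04 was the highest of all livers, the day 3 value was 0.98 and below 2-fold, and the call was lost when only the groups compared were fitted. On day 14 it differed by -0.75 ± 0.36 (limma adjusted p = 0.179), a group ratio of 0.250 in FPKM, and was called lower, by -1.66, only with a pseudocount of 0.1.

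Markers of the cells that make HGF were measured in the same livers. The stellate list summed to 105 to 138 FPKM in normal liver, 126 to 157 at 6 h and 124 to 181 at 24 h. At 6 h and 24 h 0 of 8 genes were called. Its sum was 90.1 to 265 on day 3, 133 to 212 on day 7 and 68.1 to 101 on day 14. Col3a1 was called higher on day 3 (1.07) and Lrat lower on day 14 (-1.12). In PHX-D3 replicate 2 the stellate sum was 265 against 90.1 and 110 in the other 2, the Kupffer cell sum 559 against 300 and 198, and the hepatocyte sum 34830 against 44761 and 67297. The sinusoidal endothelial list was lower at the times when Hgf was higher: it summed to 142 to 159 FPKM in normal liver, 74.8 to 92.9 at 6 h (1 of 8 genes higher, 4 lower), 96.9 to 106 at 24 h (1 higher, 1 lower), 81.0 to 121 on day 3 (0 called), 177 to 273 on day 7 and 85.0 to 105 on day 14. The part of these differences in the Hgf values was not tested.

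**Figure D5:**
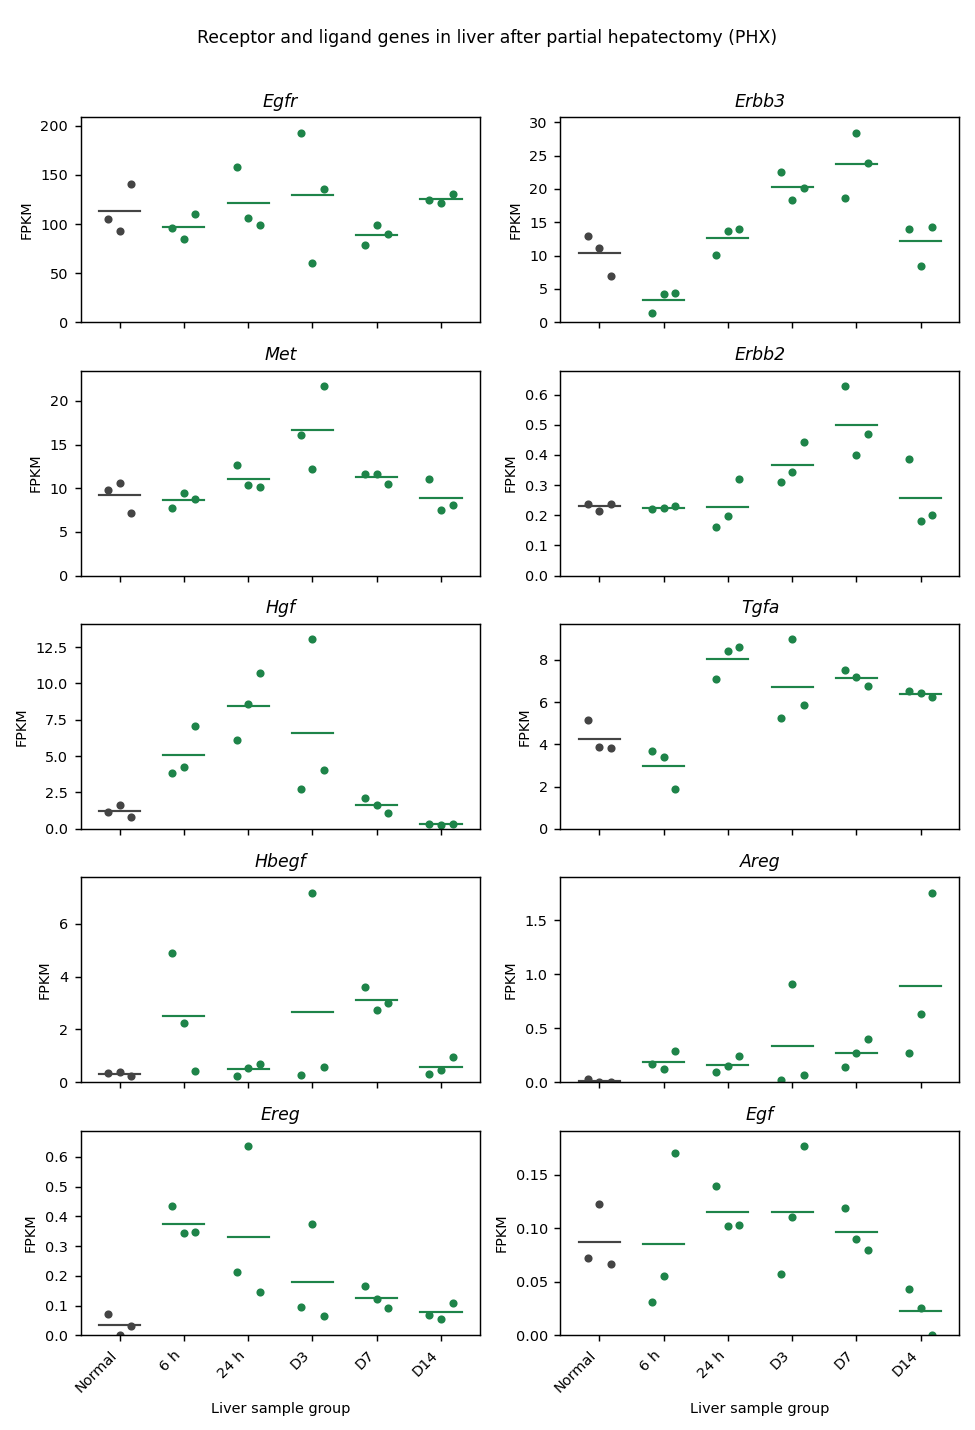
FPKM of the 10 genes in the 18 livers by group on linear axes, with points for livers and a bar for the group mean. Hgf is above normal liver in all livers at 6 h, 24 h and day 3, Erbb3 is below it in all livers at 6 h, and no liver group stands apart in Egfr.

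Erbb3 fell and then recovered past its starting level. It was at 12.9, 11.1 and 7.00 FPKM in normal liver, 1.34, 4.23 and 4.34 at 6 h, 10.1, 13.7 and 13.9 at 24 h, 22.5, 18.3 and 20.1 on day 3, 18.6, 28.4 and 23.9 on day 7 and 14.0, 8.42 and 14.2 on day 14. The 6 h livers were below and the day 3 and day 7 livers above all normal livers, without overlap. It fell by 1.45 ± 0.30 at 6 h (limma adjusted p = 0.00085). From 6 h to 24 h it rose by 1.74 ± 0.30 (0.000583), and on day 7 it was above normal by 1.14 ± 0.30 (0.00895). The summed hepatocyte markers were 42449 to 49901 FPKM at 6 h against 53159 to 57917 in normal liver, with 0 of 7 called, and the Kupffer cell sum was 86.6 to 170 at 6 h, with 8 of 10 lower. Their part in the Erbb3 value was not tested. The day 7 call was lost under quantile normalisation (0.93), under median-of-ratios scaling (0.99) and without normal liver replicate 3 (0.91, limma adjusted p = 0.0509). On day 3 the difference was 0.94 ± 0.30 (limma adjusted p = 0.0273), under 2-fold, and called without normal liver replicate 1 (1.11) or PHX-D3 replicate 2 (1.01).

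Met was at 9.74, 10.6 and 7.21 FPKM in normal liver and reached 16.1, 12.2 and 21.7 on day 3, where all 3 livers were above normal. The difference of 0.78 ± 0.19 (limma adjusted p = 0.00775) stayed under 2-fold, and Met was called at no time. Tgfa was at 5.14, 3.86 and 3.82 in normal liver, 3.67, 3.38 and 1.87 at 6 h and 7.11, 8.44 and 8.62 at 24 h. It was thus below every normal liver at 6 h and above every one at 24 h. Neither difference from normal was called (-0.43 ± 0.19, limma adjusted p = 0.0622, and 0.78 ± 0.19, 0.00511). From 6 h to 24 h Tgfa rose by 1.22 ± 0.19 (limma adjusted p = 0.000279), which was under 2-fold after quantile normalisation (0.93), median-of-ratios scaling (0.99) and without PHX-6h replicate 3 (0.998).

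Hbegf varied more between livers of a group than any other tested member (SE 0.55). It was at 0.364, 0.385 and 0.233 FPKM in normal liver, 4.90, 2.24 and 0.422 at 6 h, 0.264, 7.18 and 0.567 on day 3 and 3.61, 2.72 and 2.99 on day 7. Day 7 was the one group in which all livers were high together. At 6 h the difference was 1.18 ± 0.55 (limma adjusted p = 0.0819), called higher after quantile normalisation (1.44) and without PHX-6h replicate 3 (1.72, 0.0187), and the neutrophil and monocyte sum was 45.7 to 47.2 FPKM in the 3 livers, with 3 of 7 genes higher. On day 7 it rose by 1.63 ± 0.55 (limma adjusted p = 0.0360), and leaving out any 1 of the 6 livers ended that call, at adjusted p of 0.0699 to 0.102. It was also lost under quantile normalisation (1.34) and median-of-ratios scaling (1.48). On day 7 the Kupffer cell sum was 1241 to 1799 FPKM against 221 to 349 in normal liver, with 10 of 10 genes higher, and the neutrophil and monocyte sum 79.1 to 143 against 2.89 to 9.30, with 6 of 7 higher. The part of these cells in the Hbegf value was not tested.

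Areg, Ereg and Egf did not pass the filter in liver. Areg was at 0.029, 0 and 0 FPKM in normal liver and 0.273, 0.634 and 1.76 on day 14, the highest group, a ratio of reads of 94.6 (95% exact interval 25.8 to 787) from 2 reads in normal liver. Ereg was at 0.073, 0 and 0.033 in normal liver and 0.436, 0.345 and 0.346 at 6 h, and its highest value was 0.637 at 24 h. Fitted without the filter, Ereg was higher at 6 h (0.41, limma adjusted p = 0.0102) and 24 h (0.35, 0.0399) and Areg on day 14 (0.83, 0.0438), all under 2-fold on the log2(FPKM + 1) scale. Egf was at most 0.177.

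In counts, 1 of the 6 tested genes was higher and 1 lower at 6 h (4.78% and 11.5% of 11114 genes), 1 and 0 at 24 h (3.74% and 4.16%), 1 and 0 on day 3 (3.33% and 2.49%) and 2 and 0 on day 7 (7.81% and 1.03%). Hbegf, below 1 FPKM in every normal liver, could not be called lower than normal. On day 14 limma called 0 and 0 (0.981% and 2.00%), with 1 gene, Tgfa, at an unadjusted p below 0.05. From 6 h to 24 h it was 2 and 0 (5.19% and 1.53%), and without PHX-6h replicate 3 Hbegf was also called, lower by -1.56 (limma adjusted p = 0.0404).

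In the wider lists for liver, Nrg4 was the ligand that moved most, from 3.37 FPKM in normal liver to 34.97 at 6 h (3.00), 38.1 at 24 h (3.10) and 20.9 on day 3 (2.25), and then 3.88 on day 7 and 5.83 on day 14. In the HGF activation system Plaur rose at 6 h (0.440 to 4.53, 1.86), and Klkb1 fell at 6 h (80.4 to 32.3, -1.29) and 24 h (23.6, -1.79), as did Hgfac at 24 h (120 to 38.9, -1.61). Of 16 feedback regulators, 5 were higher at 6 h (4.78% of all genes), 3 at 24 h (3.74%), 0 on day 3 (3.33%), 5 on day 7 (7.81%) and 4 on day 14 (0.981%), with 0 lower at any of these times. On day 3, 9 of the 16 had an unadjusted limma p below 0.05 and 8 an adjusted one, all under 2-fold. The 3.33% of all genes is a share at 2-fold and is no background for these 9 and 8. The feedback regulators called higher at the other times included Dusp5 (0.270 to 9.06 at 6 h, 2.75) and Dusp6 (12.3 to 48.3 on day 7, 1.90, and 80.0 on day 14, 2.61), both phosphatases of ERK. Of 26 adaptors and kinases 2 were higher and 2 lower at 6 h (4.78% and 11.5% of all genes), and 3 were higher on day 7 (7.81%), led by Irs2 (1.35 to 15.8, 2.83).

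Cells and livers differed in which of these genes were present. Egfr was 78.8% to 96.5% of the ErbB receptor sum in all liver groups, as it was in hepatocytes (90.5%). Of the summed member EGF family ligands, Tgfa was 90.3% in normal liver, 51.8% at 6 h and 66.6% on day 7. That sum leaves out Nrg4, which was at 3.37 FPKM in normal liver against 4.28 for Tgfa. Erbb2, at 3.17 FPKM or more in all 30 cultured libraries, was at most 0.629 in liver and 0.041 in hepatocytes. Hgf, present in every liver, had at most 45 reads in a cell library. The tables were normalised separately, so these levels are set side by side without a test.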

How the data were processed

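Polyadenylated RNA of 33 cell and 18 liver libraries was sequenced on Illumina instruments. The authors deposited FPKM values per gene, and the submitters' processing notes name TopHat 1.4.1, Cufflinks 1.3.0 and mm10. The FPKM unit was read from those tools and the values. A table of 9 day 7 libraries was not used here. Replicates were not pooled.

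Low values moved in steps of 1 read, so reads were recovered up to a common factor. Among values above 0, 99.9% in cells and 99.98% in liver lay within 0.05 of a whole read. Median depth was 60.8 M (mega) reads in cells and 57.4 M in liver. Replicate pairs differed by more than sampling noise, with chi-square per gene of 6.18 or more in cells and 31.6 or more in liver.

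Groups were taken from the sample labels. Genes that reached 1 FPKM in 3 or more libraries (12328 in cells, 11114 in liver) were tested with limma 3.58.1 in R 4.3.3 on log2(FPKM + 1) with a trended variance, 1 fit per table over all groups, and Benjamini-Hochberg adjustment over all genes tested. Calls needed adjusted p below 0.05 and a fold change of 2. Contrasts over the 4 lines weighted lines equally. The exact interval for a ratio of reads was binomial at 95%, and the floor was 3 reads. Promoter windows of 250 bases came from RefSeq on GRCm38.p6. Python 3.11.15 was used with numpy 2.4.6, pandas 2.3.3, scipy 1.17.1 and matplotlib 3.10.9.

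The 10 genes and the 6 pathway lists were chosen with earlier results of these data known. All 10 genes are named, with the 2 largest rises and falls of each list per comparison, the 2 genes most correlated with each tested member over group means, and markers. The fits were repeated with quantile normalisation, a pseudocount of 0.1, a 5 FPKM filter or none, median-of-ratios scaling, other fold limits, limma-voom on recovered reads, only the groups compared, the replicate block, and leaving out each library or line. The interaction test without clone-1 was chosen after seeing the data.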

Additional observations from a re-analysis of the deposited data

Results flagged for a closer look

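In maturation, the change in Erbb3 and in Hbegf differed between lines in direction as well as in size. For Erbb3 the line changes spanned 4.002 on the log2 scale, from a rise at passage 35 of mouse-1 to a fall in clone-1 (limma interaction over the 4 lines, adjusted p = 9.94e-19). For Hbegf they spanned 3.45, from a rise in mouse-2 to falls in mouse-1 at both passages (adjusted p = 1.02e-19). The libraries were technical repeats, and 96.3% of the 12328 genes tested had such an interaction, so the p-values separate these genes little from others. Called rises in one line with called falls in another were found for 357 genes, 2.90% of those tested.

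The clone-1 arms differ in Y-linked reads, and without clone-1 the Erbb3 changes spanned 2.45 (adjusted p = 3.79e-14), with 1 line higher and 0 lower. For Hbegf the span remained 3.45 without clone-1 (adjusted p = 4.16e-20), with 1 line higher and 2 lower, where 1.46% of all genes had calls in both directions. Single libraries were not screened for outliers, since every group had 3.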

How the results depend on the processing

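Numbers here are members called in either direction. On day 3 against hepatocytes 6 became 3 under quantile normalisation, and Egfr turned from 0.30 to -1.31 under median-of-ratios scaling. For maturation 3 became 0 (quantile), 1 (median-of-ratios), 8 (no fold limit), 5 (1.5-fold) and 1 without mouse-1 at passage 35. Passaged cells against day 14 gave 2, but 5 (no fold limit), 4 (1.5-fold) and 4 without mouse-2, and day 14 against day 3 gave 4, but 7 with no fold limit. In liver, 24 h gave 1, but 2 with no fold limit or 1.5-fold. Day 3 gave 1, but 2 (pseudocount 0.1), 4 (no fold limit), 3 (1.5-fold), 2 (voom) and 0 (only the groups compared). Day 7 gave 2, but 1 (no filter, 5 FPKM or voom) and 0 (quantile or median-of-ratios). Day 14 gave 0, but 1 with pseudocount 0.1, and 24 h against 6 h gave 2, but 1 under quantile or median-of-ratios. Pathway and marker calls rose from 509 to 904 with no fold limit.

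Leaving out single libraries gave 6 to 6 (day 3), 7 to 7 (day 14), 4 to 4 (day 14 against day 3), 7 to 7 (passaged against hepatocytes), 2 to 3 (passaged against day 14), 3 to 3 (maturation) and 6 to 6 (IL6-iMHs against hepatocytes). In liver it gave 2 to 3 at 6 h, 1 to 1 at 24 h, 1 to 2 on day 3, 0 to 1 on day 7, 0 to 0 on day 14 and 2 to 2 for 24 h against 6 h. Line by line it gave 71 to 73 (72 in full), and for the lists 492 to 516. With the replicate block all 196 of 196 member values kept their call. The numbers did not pair libraries, with a mean correlation of same-numbered deviations of -0.015 in cells and -0.030 in liver. Over all alternatives 1846 member values kept direction and call, 67 gained a call, 40 lost one and 1 reversed. Depth limits Areg, Ereg and Hgf, which have few reads in hepatocytes.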

Other observations

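The genes whose group means followed each member most closely were picked by Pearson's r. This is a description only, since groups are few and several cell groups are labelled as the same line. Over the 11 cell groups these were Mapk15 (0.958) and Adam11 (0.939) for Egfr, Itpr3 (0.985) and Lamc1 (0.983) for Erbb2, Mst1r (0.844) and Jund (0.831) for Erbb3, and Fam3c (0.974) and Kifap3 (0.973) for Met. For the ligands they were Htra1 (0.931) and Nyap1 (0.913) for Areg, Foxc1 (0.914) and Vav3 (0.907) for Ereg, Arfgap1 (0.935) and Gtf2a2 (0.915) for Hbegf, and Fam76a (0.947) and Npdc1 (0.945) for Tgfa. Egfr was the member whose group means ran against those of Areg, with r of -0.592. Over the 6 liver groups, Cul1 (0.995) and Zfp46 (0.994) were closest to Hgf, Syne2 (0.998) and Ipo9 (0.998) to Erbb3, Syne4 (0.986) and St6gal1 (0.983) to Tgfa, Csf2rb2 (0.991) and Ptprj (0.986) to Hbegf, Ankrd17 (0.994) and Eif4enif1 (0.993) to Met, and Prpf4 (0.982) and Ubl4a (0.9798) to Egfr.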
